A study of Zea mays with 48 samples.

Results

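The maize inbred B75 raises a group of leaf genes under spider mite feeding that do not rise, within the limits set here, in the inbred B73. These genes were chosen by their levels in B75 and B73 leaves, as counts per M gene counts of a library (CPM). The ratio R, defined as the infested group mean plus 0.5 CPM over the uninfested group mean plus 0.5 CPM, had to be at least 2.5 in B75 and at most 1.25 in each of 2 separate sets of B73 libraries, and the mean in infested B75 had to reach 3 CPM. Of 44146 maize genes with a Zm identifier, 118 met all criteria. No lower limit was set in B73, where R was at most 0.8 for 21 members in one set of libraries or the other, down to 0.268. They are set beside the 1181 genes that met the B75 criteria alone and the 527 genes with R of at least 2.5 in B75 and in both sets of B73 libraries.

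The study sequenced poly(A) RNA from leaf 4 of plants 22 days old. A section of the leaf, fenced by a wax barrier, carried 200 adult female mites (Tetranychus urticae) for 24 hours, while uninfested sections had the barrier alone. Infested and uninfested leaves of B75, of the F1 from B73 and B75 (the B75 F1 from here on) and of B73 (replicates 5 to 8) formed the B75 experiment. Infested and uninfested leaves of B96, of the F1 from B73 and B96 (the B96 F1) and of B73 (replicates 1 to 4) formed the B96 experiment, with 4 libraries in each of the 12 groups. B73 is the reference inbred of maize genomics, while B75 and B96 are known as lines that resist spider mites. The labels call the libraries biological replicates without giving the plants in each, so a p-value measures the spread between these libraries. All lines and F1s were mapped to the genome of B73, and reads from alleles that differ from it can be missed. The identifiers were paired with no gene name, position or sequence, so the members are described by identifier and pattern, and leaf cell markers could not be checked.

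Spider mites pierce leaf cells with a stylet and feed on their contents. Plants answer with jasmonate-led signalling, which switches on genes for proteinase inhibitors, oxidative enzymes and toxic or volatile metabolites. Maize inbreds differ widely in gene content and in the regulatory sequence of shared genes, and an F1 carries an allele of each parent.

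Infested libraries held 9.98 to 16.6 M gene counts and uninfested ones 12.5 to 20.9 M. The members together took 0.0788 to 0.896% of the counts of a library. Libraries of the same group always differed by more than sampling noise, with a chi-square per gene of at least 5.13.

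The values that chose the members are given as a description, with no test. R in B75 ran from 2.5 to 32.3 with a median of 3.19. Mean levels in infested B75 ran from 3.06 to 313 CPM with a median of 13.2 CPM, and in uninfested B75 from 0.0518 to 125 CPM with a median of 3.04 CPM. For 113 of the 118 members, every infested B75 library lay above every uninfested one, and 26.9% of the 17377 genes with 3 CPM in either B75 group did the same, a contrast that the choice itself used. Infested B75 had the highest mean of the 12 groups for 60 members, infested B96 for 29 and a B73 group for 9. In bulk leaf tissue, fewer cells of a type and less RNA per cell cannot be told apart.

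Genes lay close to each limit on both sides. Zm00001d032230 entered with an R of 2.5 in B75, and Zm00001d044043 stayed out with 2.496. Zm00001d045184 entered with 3.06 CPM in infested B75, and Zm00001d032981 stayed out with 2.99 CPM. Zm00001d042906 entered with an R of 1.248 in B73 replicates 1 to 4, and Zm00001d032776 stayed out with 1.260. Zm00001d053859 entered with an R of 1.249 in B73 replicates 5 to 8, and Zm00001d002139 stayed out with 1.268. Many members depend on single libraries. With each of the 24 B75 and B73 libraries left out in turn, the criteria found 106 to 131 genes, and 48 of the 118 members were found every time.

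The members reached their B75 response by different routes relative to B73, which were sorted after the values were seen and are described without a test. For 24 members, named near-unread here, the mean was under 0.5 CPM in all 4 B73 groups, so that with 0.5 CPM added R in B73 could not exceed 2. A further 30 members were at least 2-fold lower in uninfested B75 than in uninfested B73 (replicates 5 to 8, with 0.5 CPM added to each mean). The remaining 64 are called the other members. Over all 118, the ratio of B75 to B73 had a median of 3.30 in infested leaves and 1.02 in uninfested leaves. In infested leaves 81 members were at least 2-fold higher in B75 than in B73, 6 were at least 2-fold lower and 31 lay between. In uninfested leaves 29 were at least 2-fold higher in B75, 30 at least 2-fold lower and 59 lay between.

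**Figure D1:**
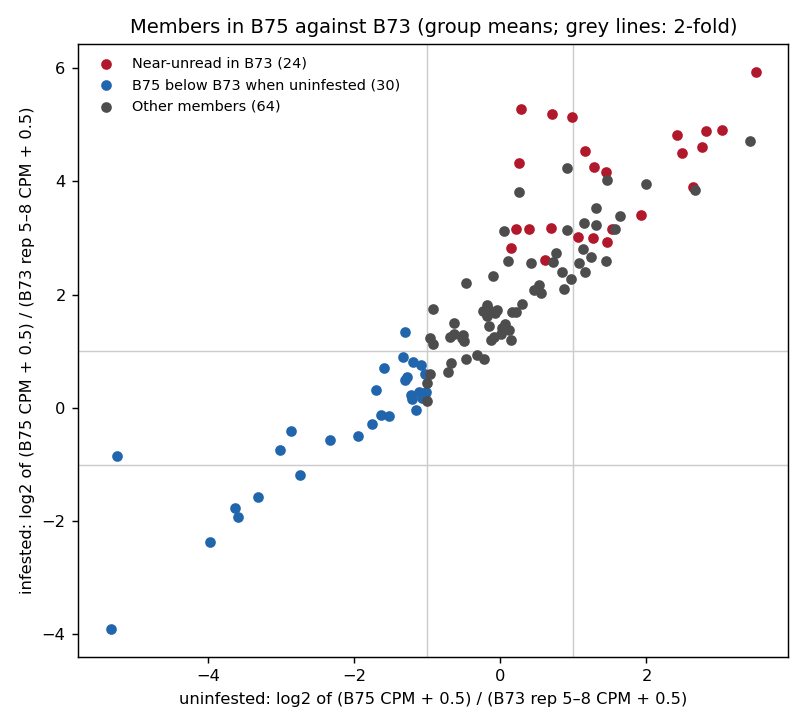
Each point is a member, placed by the log2 ratio of B75 over B73 (replicates 5 to 8, 0.5 CPM added to group means) in uninfested leaves (horizontal) and in infested leaves (vertical), coloured by class, with grey lines at 2-fold. Near-unread members lie high, with all 24 more than 2-fold above B73 when infested, which their sorting and the 3 CPM limit require. Of the 30 members that start below B73, 23 fall inside the 2-fold band when infested.

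Near-unread members showed the largest ratios, with a median R of 5.13 in B75, against 2.84 in the 30 members lower in uninfested B75 and 3.09 in the other members. Their level in B75 over B73 had a median of 18.5 in infested leaves and 2.41 in uninfested leaves. The sorting and the 3 CPM limit keep the infested ratio high for each of them. Zm00001d003304, the member with the largest R, had 17, 19.6, 17.4 and 24.7 CPM in infested B75 and 0.159, 0, 0.105 and 0.239 CPM in uninfested B75. The 16 B73 libraries of both experiments held at most 0.357 CPM of it. Zm00001d049770 had 12.6, 22.0, 14.3 and 19.3 CPM in infested B75 and 0.239, 0.458, 0.419 and 0.813 CPM in uninfested B75. Its count was 0 in all 16 B73 libraries, which allows a level of up to 0.0125 CPM (3 counts over those libraries, counting error only). The same holds for 6 more members, and 12 members in all had at most 3 counts over the 16 libraries.

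Several of the members with few or no B73 counts carry neighbouring identifiers. Zm00001d048870, Zm00001d048871, Zm00001d048872 and Zm00001d048874 form one run of identifiers at most 2 apart, Zm00001d032909 and Zm00001d032911 a second, and both runs are near-unread in B73. Zm00001d048053 and Zm00001d048054, which belong to the other members, form the third run. Zm00001d048871 had 42.8, 40.6, 17.4 and 19.6 CPM in infested B75 and 3.75, 8.86, 4.77 and 3.25 CPM in uninfested B75, so its groups do not overlap. In the B75 F1 it had 5.94, 3.87, 5.17 and 3.08 CPM in infested and 1.5, 1.58, 0.623 and 0.573 CPM in uninfested leaves, lower than B75 in every library of the same treatment. B73 held 1 count of it over 16 libraries. Positions were not used here, and a shared run of identifiers is a property of the names.

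Members that start below B73 showed the reverse arrangement, in which the low uninfested ratio is set by the sorting. Their B75 to B73 ratio had a median of 1.05 in infested leaves and 0.340 in uninfested leaves, and for 14 of the 30 the infested B75 mean was still under the uninfested B73 mean. Zm00001d037689 is the extreme case. It had 36.6, 43.9, 33.4 and 31.6 CPM in infested B75 and 1.36, 1.68, 0.786 and 0.670 CPM in uninfested B75. B73 replicates 5 to 8 had 64.7, 81.2, 54.6 and 61.7 CPM infested and 66.7, 61.4, 58.3 and 57.2 CPM uninfested, above every B75 library whether or not mites had fed. Zm00001d018854 had 3.08 to 4.28 CPM in infested B75 and 0.399 to 0.718 CPM in uninfested B75, against 5.52 to 19.3 CPM in infested and 7.90 to 18.5 CPM in uninfested B73 of both sets.

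The most counted members in infested B75 were less uniform. Zm00001d023651 had 150, 142, 121 and 133 CPM in infested B75 and 27.8, 31.1, 34.3 and 29.8 CPM in uninfested B75, while all 16 B73 libraries lay between 7.58 and 13.9 CPM. Zm00001d029218 had 111, 97.5, 108 and 105 CPM infested and 42.5, 34.7, 25.7 and 41 CPM uninfested in B75, against 7.08 to 15 CPM in B73. Both separate their B75 groups widely and stand above B73 in each treatment. Zm00001d003712 had 131, 171, 273 and 420 CPM in infested B75 and 112, 69.7, 77.5 and 97.2 CPM in uninfested B75, a narrow separation next to a wide spread. Zm00001d032222 had 88.8 to 140 CPM in infested B75 and 33.3 to 48.9 CPM in uninfested B75.

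For 5 members the infested and uninfested B75 libraries overlapped, and they are Zm00001d002678, Zm00001d011123, Zm00001d011847, Zm00001d020306 and Zm00001d052532. In Zm00001d002678, replicates 1 to 4 of infested B75 had 10.1, 2.40, 355 and 226 CPM and those of uninfested B75 63.3, 14.4, 14.7 and 108 CPM. In Zm00001d011847 they had 6.40, 5.90, 140 and 139 CPM infested and 22.4, 15.7, 11.5 and 36 CPM uninfested. Zm00001d052532 had 7.77, 5.96, 80.7 and 94.0 CPM infested and 14.8, 15.6, 12.9 and 25.7 CPM uninfested. In all 3, infested replicates 3 and 4 lay above every uninfested library and infested replicates 1 and 2 below every one. Leaving out infested B75 replicate 3, or replicate 4, removes each of the 3 from the members. None of the 3 passed the edgeR test in the B75 F1, B96 or the B96 F1, with adjusted p of 0.066 to 0.97.

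**Figure D2:**
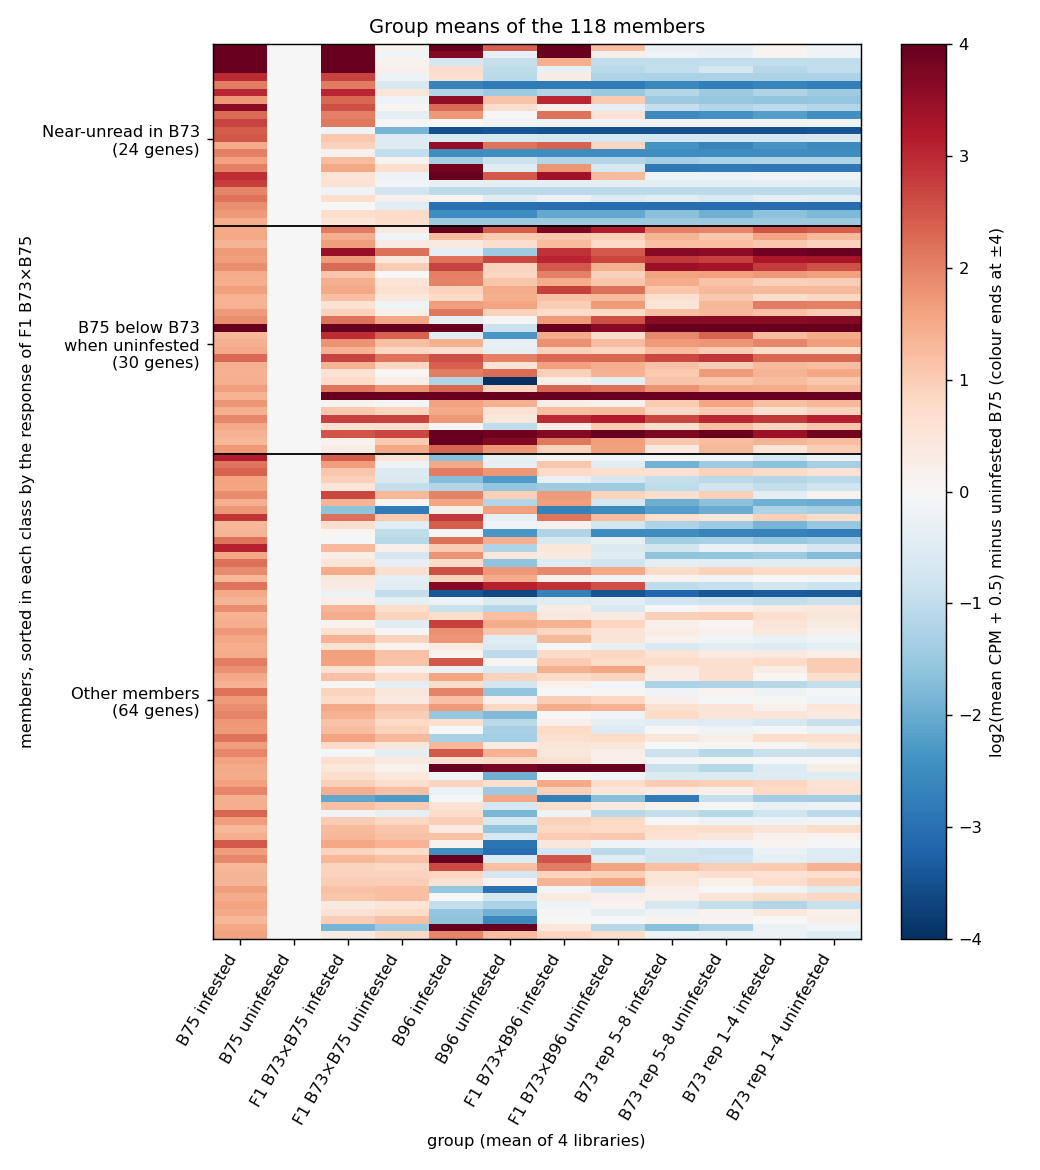
Mean level of each of the 118 members (rows, sorted within class by the B75 F1 response) in the 12 groups of 4 libraries (columns), as log2(mean CPM + 0.5) minus its value in uninfested B75, with colours ending at 4 either way. Infested B75 is red throughout, as the choice requires, and both infested and uninfested B73 columns are mostly blue for near-unread members and mostly red for members that start below B73.

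Whether the B75 response appears where the choice did not look was asked first in the B75 F1, whose libraries played no part in it. There 47 of the 118 members rose with mites and 2 fell (edgeR's quasi-likelihood test, adjusted p under 0.05 over all 22572 genes of the fit). Across all genes of the fit 22.4% were higher and 23.6% lower, so rises made up a larger share of the members (39.8%) than of all genes, and falls a smaller one. The members' log2 fold changes had a median of 0.44, against -0.03 for all genes, and 101 of 118 were above 0. Of the 527 genes induced in B75 and B73 alike, 526 rose in this F1, with a median of 3.04, and 86.5% of the 1181 genes that met the B75 criteria alone rose. Scaled by library totals, as in the choice of members, 57 members rose and the median of all genes moved to 0.13. Over all genes 6443 were then higher and 3203 lower, against 5051 and 5333 in the main fit.

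Of the 24 near-unread members, all of them tested, 18 (75%) rose in this F1 with a median log2 fold change of 2.58. So did 12 (40%) of the 30 members that start below B73 (median 0.44) and 17 (26.6%) of the other 64 (median 0.28). The share in the other members was close to the 22.4% of all genes that were higher. The only falls, Zm00001d006875 and Zm00001d032230, belong to the members that start below B73. Zm00001d053918 had 12.4, 9.88, 13.7 and 16.8 CPM in the infested F1 and 0.0683, 0, 0.0692 and 0.172 CPM in the uninfested F1, a log2 fold change of 7.06 ± 0.47 (SE; adjusted p = 8.4e-11 by edgeR). Zm00001d003304 had 23.2, 27, 17.6 and 16.6 CPM infested and 0.0683, 0.365, 0.208 and 0.115 CPM uninfested (6.58 ± 0.34, adjusted p = 1.1e-12 by edgeR). For both genes the infested F1 libraries overlapped those of infested B75, although B73, the other parent, had next to no counts. Zm00001d045184 had 1.71, 2.61, 1.53 and 1.62 CPM in the infested F1 and 2 counts in all in the uninfested F1, a ratio of 59.1 with an exact 95% counting interval of 15.9 to 496 (fitted log2 fold change 5.39 ± 0.59, adjusted p = 1.7e-06 by edgeR). Zm00001d048370 had 8.14, 5.93, 6.38 and 4.96 CPM infested and 0.410, 0.973, 1.31 and 0.286 CPM uninfested (2.94 ± 0.32, adjusted p = 1.5e-07 by edgeR), below the 8.83 to 17.3 CPM of infested B75. Among the most counted members, Zm00001d032222 had 96.9, 69.3, 104 and 95.6 CPM infested and 52, 49.5, 52.6 and 58.9 CPM uninfested (0.61 ± 0.18, adjusted p = 0.0098 by edgeR).

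**Figure D3:**
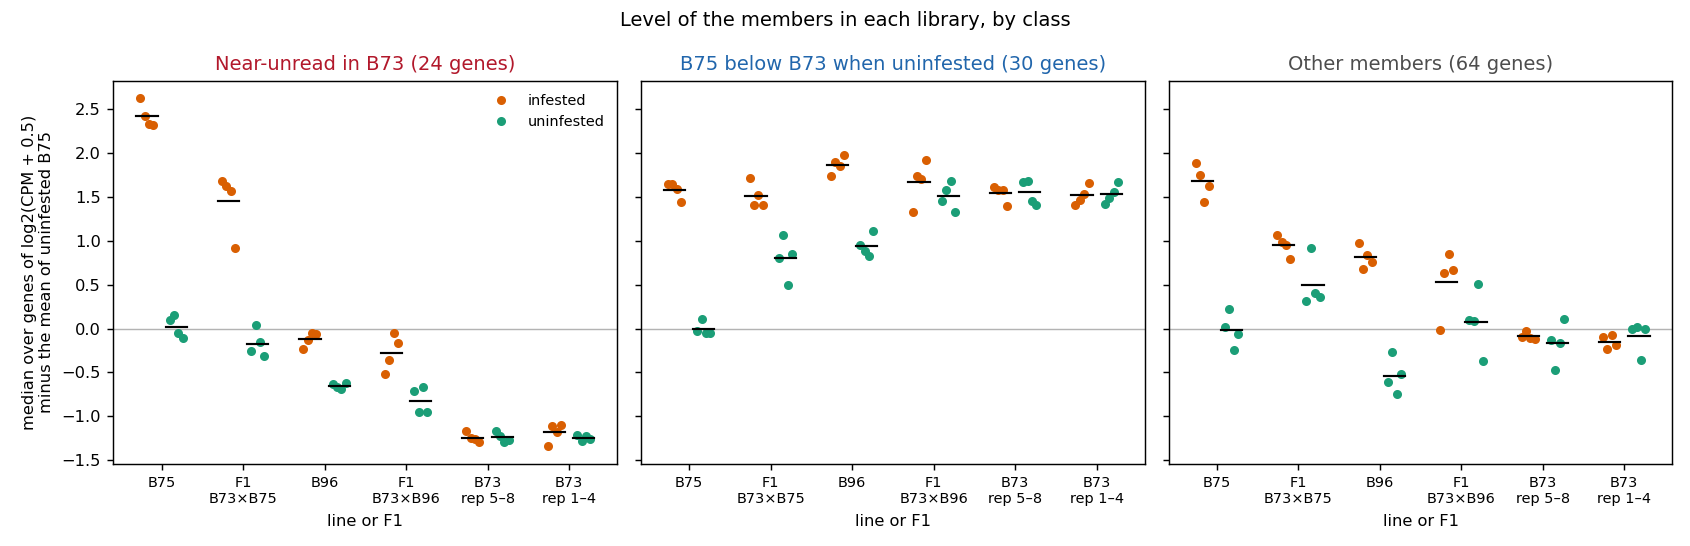
Median over the members of each class of log2(CPM + 0.5) minus the mean of uninfested B75, 1 point per library and a bar at the mean of 4, for infested (orange) and uninfested (green) leaves. Infested leaves of the B75 F1 average 1.45 for near-unread members, between B75 at 2.43 and B73 at -1.24, and the choice of members keeps infested B73 from rising but sets it no lower limit.

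Infested leaves of this F1 lay between the parents for 90 of the 118 members, above both for 16 and below both for 12. Uninfested leaves lay above both parents for 51 members, between them for 57 and below both for 10. Among all genes with 3 CPM in any of the groups compared, 22.9% were above both parents in infested and 26.7% in uninfested leaves. The 51 members include 38 of the other 64. The ratio of the uninfested F1 to uninfested B75 in those 64 had a median of 1.45 with 0.5 CPM added to each mean and 1.54 without. Uninfested replicate 2 of this F1 was high for these 64 (a median of 0.921 on the log2 scale relative to uninfested B75, against 0.319 to 0.400 in the other replicates). Without it, a choice made after seeing the data, 43 members and 32 of the 64 lay above both parents. The median ratio to B75 was then 1.40 with 0.5 CPM added and 1.46 without. The choice of members used the parents' levels, so these counts are descriptions. In near-unread members the infested F1 had a median of 0.630 of the infested B75 level (nothing added to the means), from 0.0865 to 1.55, and 10 of the 24 lay between 0.25 and 0.75.

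Some members went down in this F1. Zm00001d006875 had 5.94, 3.72, 1.94 and 2.22 CPM in the infested F1 and 9.02, 13.1, 5.54 and 8.02 CPM in the uninfested F1, and it fell by 1.53 on the log2 scale (SE 0.34, adjusted p = 9.7e-04 by edgeR). In B75 the order was the opposite, with 13.3, 11.5, 7.35 and 8.25 CPM infested and 2.31, 4.2, 2.20 and 2.10 CPM uninfested. Its infested mean in B73 was 3.67 CPM in replicates 5 to 8 and 4.14 CPM in replicates 1 to 4, under the uninfested means of 7.44 and 5.83 CPM. Zm00001d032230, the most counted member in infested B75, had 182, 159, 94.4 and 121 CPM in the infested F1 and 330, 285, 172 and 244 CPM in the uninfested F1, and fell by 1.06 (SE 0.30, adjusted p = 0.0061 by edgeR). It had 380, 287, 220 and 366 CPM in infested B75 and 133, 160, 124 and 82.6 CPM in uninfested B75.

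**Figure D4:**
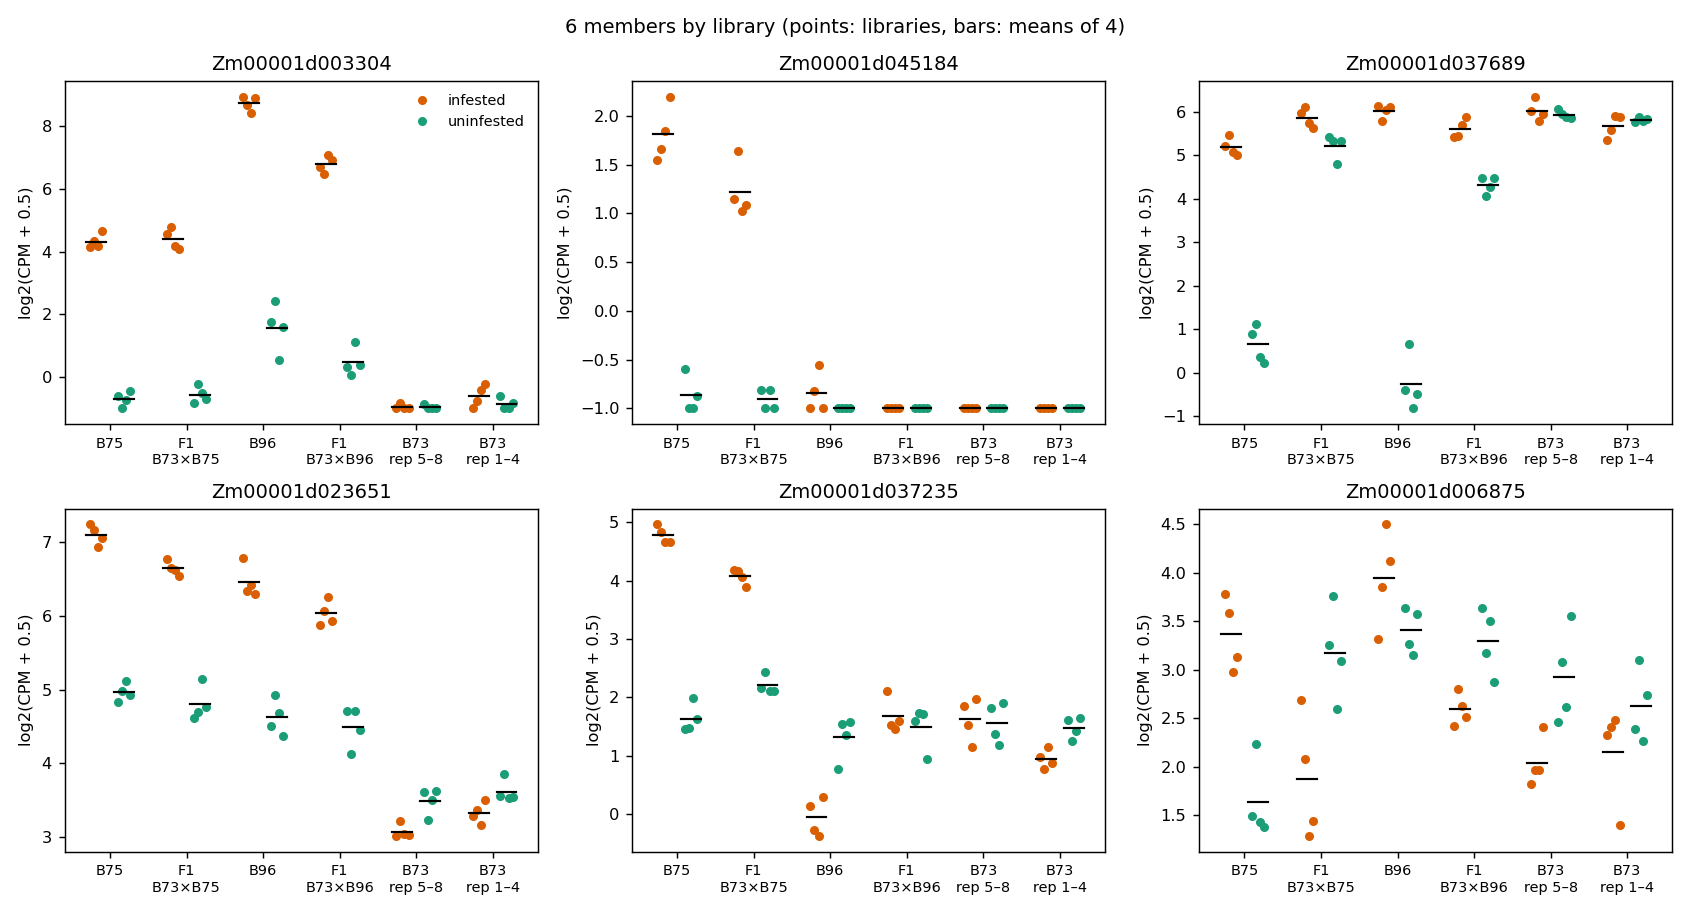
log2(CPM + 0.5) of 6 members in every library, with infested (orange) left of uninfested (green) in each line or F1 and bars at means of 4. Zm00001d003304 is on with mites in every line and F1 but B73, Zm00001d037689 is high in B73 under both treatments, Zm00001d037235 rises in B75 and its F1 and falls in B96, and Zm00001d006875 falls in both F1s.

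B96, another resistant inbred, showed whether the members respond outside B75. Of 104 members with enough counts to be tested there, 63 rose and 5 fell, against 24.8% and 23% of the 22569 genes of the fit (edgeR, adjusted p under 0.05). Rises thus made up 60.6% of the members tested and 53.4% of all 118. They made up 88.6% of the 527 genes induced in B75 and B73 alike and 81.1% of the 1162 genes tested of the 1181. Their median log2 fold change was 1.10, against 0.00 for all genes. The 14 members not tested, 13 of them near-unread in B73, had too few counts in both B96 and the B96 F1, and 13 of the 24 near-unread members were under 0.5 CPM in both B96 groups. Over all 24 near-unread members, R reached 2.5 in B96 for 10. The 11 of them that were tested include 4 under 0.5 CPM in every group of the experiment except infested B96 and its infested F1, so that they passed the filter through groups where they are high, and no count of rises is given for them. With these 4 left out, 60 of 100 members tested rose in B96. Of the 30 members that start below B73, 17 rose, as did 36 of 63 other members. By library totals 70 members rose and 3 fell, with a median of 0.18 over all genes. Over all genes 7108 were then higher and 3397 lower, against 5590 and 5191 in the main fit.

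Zm00001d003304 had its highest levels in infested B96, all above the 17 to 24.7 CPM of infested B75 in the other experiment. B96 had 490, 407, 340 and 476 CPM infested and 2.86, 4.92, 0.960 and 2.5 CPM uninfested (log2 fold change 7.06 ± 0.35, adjusted p = 1.8e-12 by edgeR). Zm00001d053918 had 4.39, 9.70, 7.52 and 8.67 CPM in infested B96 and no count in uninfested B96, at least 158-fold higher with the uninfested level set to 3 counts over its 4 libraries (adjusted p = 1.2e-08 by edgeR). Both genes were thus far higher in infested than in uninfested leaves of B96, as in B75. Zm00001d003304 was still counted in uninfested B96, above its 0 to 0.239 CPM in uninfested B75. Zm00001d053918 passed the filter of this experiment through infested B96 and its infested F1, where it is high. Zm00001d037689 had 69.4, 54.9, 65.9 and 68.8 CPM in infested B96 and 0.254, 1.07, 0.0640 and 0.208 CPM in uninfested B96 (7.09 ± 0.32, adjusted p = 6.2e-13 by edgeR). Its infested libraries in B96 overlapped uninfested B73 replicates 1 to 4 (53.8, 58.3, 54.7 and 56.8 CPM), whereas all those of B75 lay below uninfested B73 replicates 5 to 8.

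The falls in B96 run opposite to B75, where every member is higher in infested leaves by the choice. Zm00001d037235 had 0.601, 0.325, 0.269 and 0.729 CPM in infested B96 and 1.21, 2.43, 2.05 and 2.5 CPM in uninfested B96, and fell by 2.24 on the log2 scale (SE 0.31, adjusted p = 4.4e-06 by edgeR). In B75 it had 30.8, 28, 24.8 and 25.0 CPM infested and 2.23, 2.29, 3.46 and 2.58 CPM uninfested. Treatments did not overlap in either line, and their order was opposite. Zm00001d001784 had 14.1, 16.2, 13.9 and 13.5 CPM in infested B96 and 21.5, 17.1, 22.3 and 25.5 CPM in uninfested B96 and fell by 0.78 (SE 0.22, adjusted p = 0.0051 by edgeR). Zm00001d016363 fell by 0.78 too (SE 0.26, adjusted p = 0.019 by edgeR), a call lost without uninfested replicate 1 of B96 (-0.68) or infested replicate 3 (-0.58). Zm00001d013915 and Zm00001d026282 complete the 5 (named because the count is small). Without infested replicate 3 of B96 the count of falls was 3, and in a fit of the B96 libraries alone it was 8.

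**Figure D5:**
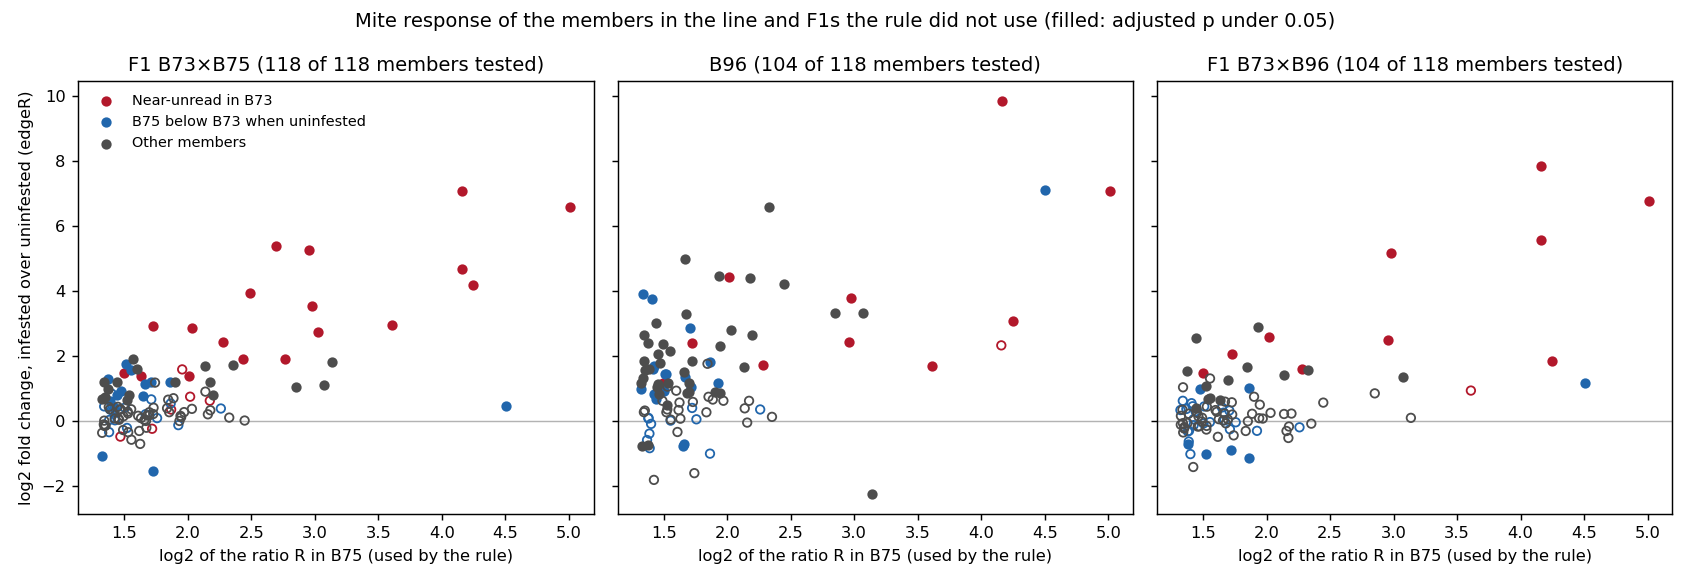
Log2 fold change with mites (edgeR, vertical) of each member tested in the B75 F1, in B96 and in the B96 F1, against log2 of R in B75, which chose the members (horizontal), with filled points past an adjusted p of 0.05. Near-unread members (red) are among the highest in each panel, beside Zm00001d037689, which starts below B73, at 7.09 in B96, and most of the rest lie between -1 and 2 in both F1s. In the panels of the B96 experiment, 4 near-unread members passed the filter through infested groups where they are high.

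In the B96 F1 the members' share of rises was close to that of all genes. Of 104 tested, 26 rose (25.0%) and 4 fell, against 20.3% higher and 20.3% lower over the 22569 genes (edgeR, adjusted p under 0.05), with medians of 0.23 and -0.03. Leaving out 1 library moved the members' median to between 0.15 and 0.35 and their rises to between 20 and 35, so the share depends on single libraries. Infested replicate 1 of this F1 was low, with a median over all members of 0.247 (log2, relative to uninfested B75). Infested replicates 2 to 4 had 0.855 to 1.00. The 527 genes induced in B75 and B73 alike rose for 99.2%, and the 1162 tested of the 1181 for 80.3%. R reached 2.5 in this F1 for 9 of all 24 near-unread members (median R 1.24), against 11.9% of the 118 members and 59.6% of the 1181 genes. Of the 63 other members tested, 13 rose (20.6%, against 20.3% of all genes). The 26 include near-unread members that passed the filter through infested groups where they are high, such as Zm00001d049770. Among the 30 that start below B73, 3 rose and 4 fell (Zm00001d006875, Zm00001d018854, Zm00001d041418 and Zm00001d047944). By library totals 33 members rose, with medians of 0.36 over the members and 0.10 over all genes. Over all genes 5128 were then higher and 2899 lower, against 4586 and 4588 in the main fit.

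Zm00001d049770 was counted in infested leaves of the B96 F1 and hardly in either parent. It had 1.33, 1.77, 2.34 and 3.37 CPM in the infested F1 and no count in the uninfested F1, at least 46.2-fold higher by the same bound (adjusted p = 4.4e-05 by edgeR). B96 held 7 counts infested and 1 uninfested, and B73 none. The gene thus passed the filter of this fit only through the infested F1, where it is high, so its p-value adds no independent support. Zm00001d003304 had 102, 88.5, 135 and 120 CPM in the infested F1 and 0.742, 0.553, 1.67 and 0.805 CPM in the uninfested F1 (log2 fold change 6.77 ± 0.37, adjusted p = 1.6e-11 by edgeR), below infested B96 in every library. Zm00001d053918 had 9.07, 8.86, 10.3 and 19.6 CPM infested and 0.371, 0.246, 0.0696 and 0.186 CPM uninfested (5.58 ± 0.46, adjusted p = 2.3e-08 by edgeR). The infested and uninfested libraries of these 3 genes are far apart, but Zm00001d053918 too passed the filter through infested groups where it is high.

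The falls in this F1 were modest beside its largest rises. Zm00001d018854 had 4.13, 3.10, 2.5 and 2.19 CPM infested and 5.01, 6.76, 4.94 and 6.81 CPM uninfested, and fell by 1.13 on the log2 scale (SE 0.34, adjusted p = 0.011 by edgeR). Zm00001d041418 fell by 1.00 (SE 0.26, adjusted p = 0.0044 by edgeR), although it rose by 1.45 ± 0.33 in B96 (adjusted p = 8.1e-04 by edgeR). Zm00001d006875 had 4.87, 6.46, 5.69 and 5.23 CPM infested and 11.9, 8.54, 10.9 and 6.81 CPM uninfested, and fell by 0.90 (SE 0.25, adjusted p = 0.0072 by edgeR), as it did in the B75 F1. In B96 it had 9.43 to 22.1 CPM infested and 8.39 to 12 CPM uninfested, which did not pass the test (0.40 ± 0.24, adjusted p = 0.17 by edgeR).

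The 3 responses tested share no library, and their lists of rises overlap in part. Of the 47 members that rose in the B75 F1, 38 were tested in the B96 experiment. Of these, 25 also rose in B96 (65.8% of the 38 and 39.7% of the 63), and 18 in the B96 F1 (47.4% of the 38 and 69.2% of the 26). Over all genes tested in both, the shares were 58.6% and 53.1% for B96 and 73.4% and 80.9% for its F1. B96 and its F1 shared 22 members (34.9% of the 63 and 84.6% of the 26), against 55.7% and 67.9% over all genes. All 3 rises were found for 16 of the 104 members tested (15.4%), against 11.5% of the 21539 genes tested in all 3, 67.3% of the 1162 and 88.2% of the 527. Of the 16, 3 start below B73 and 5 are other members, and no count is given for near-unread ones. Some near-unread ones, such as Zm00001d044455, passed the filter of the B96 experiment through infested groups where they are high. The 15.4% rests in part on such members. Besides Zm00001d003304, Zm00001d053918, Zm00001d037689, Zm00001d044455, Zm00001d023651, Zm00001d029218 and Zm00001d003712, the 16 include Zm00001d049250, which rose by 2.93 ± 0.32 in the B75 F1, 2.41 ± 0.24 in B96 and 2.06 ± 0.24 in the B96 F1. A rise in the B75 F1 with no call of a rise elsewhere was found for 20 members, of which 9, with all 8 near-unread ones, were not tested in B96 or its F1. A rise in B96 with no such call in either F1 was found for 32. For 31 members no rise was called in any of the 3, which does not show that they did not respond, and 5 of these, all near-unread, were tested in the B75 F1 alone. The patterns of these 20, 32 and 31 members were not counted over all genes, so the counts do not show whether they are unusual.

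Members that rose in all 3 still differed in level between lines. Zm00001d044455 had 27.9, 24.9, 20.1 and 15.2 CPM in infested leaves of the B75 F1, against 28.4, 27.6, 29.5 and 15.8 CPM in infested B75. Infested B96 had 2.46, 0.976, 2.60 and 0.972 CPM, and its F1 with B73 had 0.516, 0.443, 0.780 and 0.590 CPM. The gene rose in all 3, by 4.19 ± 0.39 on the log2 scale in the B75 F1, 3.07 ± 0.53 in B96 and 1.83 ± 0.63 in the B96 F1 (adjusted p = 1.4e-08, 5.6e-05 and 0.023 by edgeR). In the B96 experiment it passed the filter through infested groups where it is high. Zm00001d023651 stood well above B73 in every infested group outside it, with 121 to 150 CPM in B75, 109, 99.7, 97.9 and 92.4 CPM in the B75 F1, 109, 79.8, 84.8 and 78.0 CPM in B96, and 58.4, 66.5, 75.9 and 60.4 CPM in the B96 F1, which lay below B75 in every library. It rose by 1.69 ± 0.11 in the B75 F1, 1.66 ± 0.13 in B96 and 1.41 ± 0.13 in the B96 F1 (adjusted p = 7.1e-11, 2.0e-09 and 2.7e-08 by edgeR), while its B73 mean was 7.94 CPM infested and 10.8 CPM uninfested in replicates 5 to 8.

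A direct test asked whether the response differed between the F1s. The B75 F1 response minus the B96 F1 response was higher for 2 members and lower for 1, against 0.366% and 0.257% of the 23751 genes of the fit (edgeR, adjusted p under 0.05). Its median over the 104 members tested in both experiments was 0.24, against 0.04 for all genes. Over all 118 it was 0.25, which includes 9 members whose difference could not be estimated (SE over 100). Leaving out 1 library moved that to between 0.14 and 0.39. The median was 0.17 both for the 527 genes induced in B75 and B73 alike and for the 1181 that met the B75 criteria alone. Of these sets, in that order, 3.985% and 3.556% were higher and 0.949% and 0.677% lower. Among the 118 members the shares were 1.695% and 0.847%. The cross and the experiment cannot be told apart in this contrast.

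Zm00001d037235 had the firmest difference. It had 17.7, 17.4, 16.2 and 14.3 CPM in infested and 3.96, 4.93, 3.81 and 3.84 CPM in uninfested leaves of the B75 F1, and 3.83, 2.39, 2.26 and 2.53 CPM in infested and 2.54, 2.83, 2.78 and 1.42 CPM in uninfested leaves of the B96 F1. The difference was 1.76 ± 0.31 (adjusted p = 0.0012 by edgeR), and the call held without each of the 16 F1 libraries in turn. Zm00001d030507 had 10.6, 10.1, 12.4 and 13.1 CPM infested and 3.07, 3.59, 1.80 and 5.27 CPM uninfested in the B75 F1, and overlapping treatments in the B96 F1 (7.64 to 11 CPM infested, 4.25 to 11 CPM uninfested). Its difference of 1.62 ± 0.39 (adjusted p = 0.036 by edgeR) lost its call without uninfested replicates 1, 2 or 3 or infested replicates 1, 3 or 4 of the B75 F1, or without uninfested replicates 2 or 4 or infested replicates 1, 2 or 3 of the B96 F1, with values of 1.35 to 1.66. It also lost it in a fit of the F1 libraries alone and with a minimum count of 30, and the number of higher members was then 1.

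Zm00001d047495 was the member with the larger response in the B96 F1. It had 47.8, 52.7, 34.1 and 36.4 CPM in infested and 24.2, 42.4, 49.7 and 37.5 CPM in uninfested leaves of the B75 F1, and 35.9, 99.2, 122 and 139 CPM in infested and 12.6, 5.10, 8.28 and 20.8 CPM in uninfested leaves of the B96 F1. Treatments overlapped in the B75 F1 and not in the B96 F1. The difference was -2.86 ± 0.63 (adjusted p = 0.018 by edgeR), and the call was lost without infested replicate 3 of the B75 F1 (-2.75) or uninfested replicate 2 of the B96 F1 (-2.60). In B75 itself the gene had 134, 59.0, 43.3 and 24.2 CPM infested and 11.1, 17.4, 21.8 and 16.5 CPM uninfested. Infested B96 had 286, 239, 273 and 318 CPM, against 6.80, 22.9, 4.23 and 11.6 CPM uninfested (4.45 ± 0.56, adjusted p = 1.1e-06 by edgeR).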

How the data were processed

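The authors deposited whole-number counts per gene feature for 48 libraries. The submitters' processing notes name STAR 2.5.3a, HTSeq 0.9.1 and the genome B73 RefGen_v4. How HTSeq was set was not given in the sources used here. The 5 summary lines, a mean of 17.6% of a library (12.7 to 28.0%), stayed out of all totals. CPM in the text are counts per M gene counts, with no further scaling.

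Mite responses (infested minus uninfested) were tested with edgeR 4.0.16 in R 4.3.3: filterByExpr (minimum count 10), TMM scaling, the quasi-likelihood test and Benjamini-Hochberg adjustment over all genes of a fit at 0.05. Each experiment was fitted with its 24 libraries, and the difference between F1 responses with all 48. B75 and B73 responses chose the members and were not tested. DESeq2 1.42.0 and other settings were alternatives.

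Members and lists were chosen with earlier results of these data known. Named genes are the 6 highest in infested B75, the 6 with the largest R, the 3 largest rises and falls per test, those nearest each limit, and others said to be named for a small count or pattern. The labels mention randomized blocks without tying replicate numbers to them, and same-numbered libraries did not deviate together throughout, so the fits have no block.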

Additional observations from a re-analysis of the deposited data

Results flagged for a closer look

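In 151 groups of 4 libraries, taken over the class medians and 14 members, 13 had a library set apart from the other 3 by a wide gap (Dixon's test at 95%), and chance alone sets apart about 1 in 20. Uninfested replicate 2 of the B75 F1 was high, with medians of 0.690 over all members and 0.921 over the other members (log2, relative to uninfested B75), and with 4.93 CPM of Zm00001d037235. Infested replicate 4 of that F1 was low for near-unread members (0.916), and infested replicate 2 was high for Zm00001d045184 (2.61 CPM). Uninfested B75 replicate 2 was high for the members that start below B73 (0.114) and for Zm00001d006875 (4.2 CPM). Infested B73 replicate 8 was low for the members that start below B73 (1.40), and uninfested B73 replicate 3 was low for the other members (-0.36). In the B96 F1, infested replicate 4 had 19.6 CPM of Zm00001d053918 and infested replicate 1 had 3.83 CPM of Zm00001d037235. In B96, uninfested replicate 2 had 1975 CPM of Zm00001d032230 and infested replicate 2 had 0.390 CPM of Zm00001d049770.

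For 3 members the mite response of the B75 F1 was unlike that of the B96 F1 by edgeR's test of the difference, with log2 differences of 1.62 for Zm00001d030507, 1.76 for Zm00001d037235 and -2.86 for Zm00001d047495.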

How the results depend on the processing

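No member named for a test and no median over the members changed sign under any alternative run, but the median of all genes did, to 0.13 in the B75 F1 and 0.10 in the B96 F1 with library totals and to -0.02 for the F1 difference with a minimum count of 30. Library totals in place of TMM moved the members' median to 0.61 in the B75 F1 and 1.29 in B96, where 3 members then fell, and the share of rises among all genes called to 66.8% from 48.6% in the B75 F1, to 67.7% from 51.9% in B96 and to 63.9% from 50% in the B96 F1. Fits of the contrast's libraries alone gave 8 falls in B96 and 1 member with a higher F1 difference, and a minimum count of 30 also gave 1. With 1 library left out at a time, 44 to 50 members rose and 2 to 3 fell in the B75 F1, 60 to 64 rose and 3 to 7 fell in B96, 20 to 35 rose and 4 to 6 fell in the B96 F1, and 1 to 2 were higher and 0 to 2 lower for the difference. The lowest count for the difference came without infested replicate 3 of the B75 F1 or uninfested replicate 2 of the B96 F1. TMM-scaled CPM in the criteria found 142 genes, 102 of them members, and a pseudocount of 0.1 or 1 CPM found 116 or 112, 100 of them members each.

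Same-numbered libraries within a line or F1 correlated over 0.1 in 12 of 24 pairs of libraries (-0.33 to 0.62). For 5 of 12, the best correlation was with their own number, so these values do not show that the numbers pair libraries. Whether the numbers mark the blocks of the design is not given. With the replicate block 52 members rose and 2 fell in the B75 F1, 67 and 7 in B96, and 29 and 4 in the B96 F1. For the difference 2 were higher and 2 lower. Calls over all genes increased too, with 5318 higher and 5688 lower in the B75 F1, against 5051 and 5333 in the main fit. B96 had 5906 and 5540, against 5590 and 5191, and its F1 had 4957 and 5069, against 4586 and 4588. The difference had 114 and 74, against 87 and 61. Levels under about 0.05 CPM are at the limit of 3 counts over a group, and the cause of these shifts was not tested.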
